A study of Mus musculus with 24 samples.

Results

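The miR-200 family is a set of short regulatory RNAs made by epithelial cells, and its levels were followed here in 24 mouse liver libraries of small RNA. The 7 mature miRNAs described were taken by name from a table of 1908 mature miRNA names: mmu-miR-200a-3p, mmu-miR-200a-5p, mmu-miR-200b-3p, mmu-miR-200b-5p, mmu-miR-200c-3p, mmu-miR-141-3p and mmu-miR-429-3p (mmu, for mouse, is left off from here in most places). All 7 passed the filter on low counts, which left 421 miRNAs to test. The rule goes by name, although the family was picked with earlier results of these data known. All mice were C57Bl/6J, and each group had 8 libraries. AM132 livers were from mice that had become obese over 11 weeks of high fat feeding and were injected intravenously with a locked nucleic acid (LNA) oligonucleotide, a 16-mer complementary to mature miR-132, at 3.3 mg/kg on 3 days in a row. AM608 livers came from equally fed obese mice given a 15-mer LNA oligonucleotide against the primate miR-608 at the same dose, as the control injection. In both injected groups the liver was taken 7 days after treatment. RCD livers came from age-matched lean mice on regular chow, for which no injection is described. AM132 against AM608 asks what the oligonucleotide against miR-132 does in the obese liver. The second contrast, AM608 against RCD, compares the obese with the lean state, but these groups differ in diet and also in injection. No group holds obese mice without an injection, so the effects of obesity and of either oligonucleotide cannot be told apart.

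A miRNA is cut from a hairpin precursor whose 5′ and 3′ sides can each give a mature strand, named the 5p and the 3p arm. The arm that is kept in the silencing complex is the guide, and the other, the passenger, is mostly degraded. For the miR-200 family the 3p arms are the guides. They are best known for repressing Zeb1 and Zeb2, transcription factors that switch off epithelial genes such as E-cadherin, and so for holding cells in the epithelial state. In the liver the family is known mainly from the biliary epithelial cells that line the bile ducts. The table holds no mRNA, so the classical markers of biliary cells were not measured, and the name of the cell type rests on knowledge of the family. In a piece of whole liver, fewer cells of a type and less RNA per cell cannot be told apart.

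The family comes from 5 hairpin genes in 2 clusters, all on the minus strand of GRCm38. Mir200b (chromosome 4, 156055681 to 156055750), Mir200a (156054896 to 156054985) and Mir429 (156053905 to 156053987) lie within 1846 bp. In GENCODE M21 all 3 are in introns of the protein-coding gene Ttll10, and the processed transcript Gm13648 spans them, with Mir429 overlapping one of its exons. Mir200c (chromosome 6, 124718322 to 124718390) and Mir141 (124717914 to 124717985) lie within 477 bp, in an intron of the antisense transcript Gm15884, with Mir141 also overlapping an exon of Gm29008. These positions are those of the reference, as the build behind the counts is not given in the sources used here. The mature strands of all 7 members were found in the RefSeq table for GRCm38.p6 and are shown because their seeds (bases 2 to 8, in capitals), which select the targets, divide the family.
miR-200b-3p: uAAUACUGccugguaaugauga
miR-200c-3p: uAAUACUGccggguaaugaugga
miR-429-3p: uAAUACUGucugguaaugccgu
miR-200a-3p: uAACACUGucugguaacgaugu
miR-141-3p: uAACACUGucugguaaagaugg
miR-200b-5p: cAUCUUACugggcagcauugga
miR-200a-5p: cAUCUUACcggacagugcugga

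miR-200b-3p, miR-200c-3p and miR-429-3p share 1 seed, miR-200a-3p and miR-141-3p share another, and no other name among the 1679 mature names of the RefSeq table has either. Seed and cluster do not coincide, since each cluster makes guides of both seeds. The strands are close to one another. Counted from 1 at the 5′ end, miR-141-3p differs from miR-200a-3p by C17A and U22G. Over its first 22 bases miR-200c-3p differs from miR-200b-3p by U11G and A22G. The passenger miR-200a-5p differs from miR-200b-5p at 5 of 22 positions (U9C, G12A, C16U, A17G and U18C). The rule by which reads were given to such near-identical names is not stated, so counts of the less abundant of each pair are uncertain to that degree.

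The hairpin of Mir200b is shown with both arms in capitals, the 5p arm first, because the balance between its arms is what separated the AM608 libraries from the rest. That of Mir200a, from the same cluster, is shown for comparison.
Mir200b: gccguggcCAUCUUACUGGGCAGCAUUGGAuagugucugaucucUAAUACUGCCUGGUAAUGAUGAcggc
Mir200a: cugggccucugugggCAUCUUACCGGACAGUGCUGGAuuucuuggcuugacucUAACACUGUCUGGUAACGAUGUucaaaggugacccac

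Each AM132 library held 5926983 to 8734721 miRNA counts, each AM608 library 6855571 to 8532049, and each RCD library 5689143 to 8380591. The hepatocyte marker list (6 of 6 tested, miR-122-5p among them) summed to 265130 to 636960 CPM (read counts relative to library size after scaling by the trimmed mean of M values) over all libraries. By group the sum was 496540 to 636960 CPM in AM132, 324900 to 501180 CPM in AM608 and 265130 to 544850 CPM in RCD. RCD library 3 stood apart. It had the lowest hepatocyte sum, a neuronal marker sum of 1414 CPM against at most 576 CPM in any other library (3 of 5 markers tested), and a leukocyte marker sum of 1006 CPM against at most 281 CPM (3 of 5 tested). Its mesenchymal marker sum was 25343 CPM, against at most 16975 CPM in any other library (5 of 5 tested). It also had the lowest miR-200a-3p and miR-200b-3p of all 24 libraries, but the highest miR-141-3p of the RCD libraries (4.91 CPM). The part of other tissue in these values was not tested, and results that use RCD are given with and without that library where it matters. Nothing in the labels says that each numbered sample is a separate animal, so the p-values describe sample-to-sample spread, which may be technical.

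mmu-miR-200b-3p was the most abundant member, 56th of the 421 tested miRNAs by mean CPM. It was 454 CPM at the lowest, 612 at the median and 1339.6 at the highest of the 8 AM132 libraries, 312, 1132.8 and 1806 CPM in AM608, and 202, 704 and 1011 CPM in RCD. mmu-miR-200a-3p, 68th, was 309, 492 and 939 CPM in AM132, 222, 734 and 1216 CPM in AM608, and 167, 519.6 and 717 CPM in RCD. For both guides the ranges of the 3 groups lay over one another, and single libraries differed more than groups did. AM132 libraries 3 and 7 stood above the other 6 AM132 libraries, and AM608 libraries 3, 5, 6, 7 and 8 above AM608 libraries 1, 2 and 4. Together the 2 guides held 90.4 to 93.9% of the summed family CPM in AM132 libraries, 88.7 to 93.8% in AM608 libraries and 84.5 to 92.9% in RCD libraries.

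mmu-miR-429-3p, the third guide of the chromosome 4 cluster, was 9.71, 18.7 and 38.1 CPM in AM132 (lowest, median and highest), 12.2, 52.7 and 83.1 CPM in AM608, and 10.5, 40.4 and 76.1 CPM in RCD. Its AM132 libraries all lay under the AM608 median and under the RCD median, though the ranges overlapped. Of the chromosome 6 cluster, mmu-miR-200c-3p was 33.9, 44.2 and 56.8 CPM in AM132, 37.1, 52.4 and 80.6 CPM in AM608, and 29.1, 40.5 and 49.9 CPM in RCD. miR-141-3p was the lowest guide, at 2.07, 3.78 and 5.22 CPM in AM132, 0.995, 3.92 and 5.12 CPM in AM608, and 1.00, 2.14 and 4.91 CPM in RCD, from 7 to 48 reads per library. The passenger strands were rarer than their guides. miR-200a-5p was 13.02, 18.9 and 49.4 CPM in AM132, 8.21, 27.3 and 57.9 CPM in AM608, and 6.87, 18.1 and 36.1 CPM in RCD. miR-200b-5p was 4.68, 7.47 and 21.9 CPM in AM132, 0.746, 3.06 and 6.09 CPM in AM608, and 2.30, 5.76 and 11.97 CPM in RCD, and it alone had its lowest median in AM608. The other arms of the remaining hairpins were at or near 0. miR-200c-5p and miR-429-5p had no read in any of the 24 libraries, which allows up to 0.0541, 0.0488 and 0.0550 CPM of the unscaled total in AM132, AM608 and RCD (3 counts over each group, counting error only), and miR-141-5p had 0 to 3 reads per library.

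**Figure D1:**
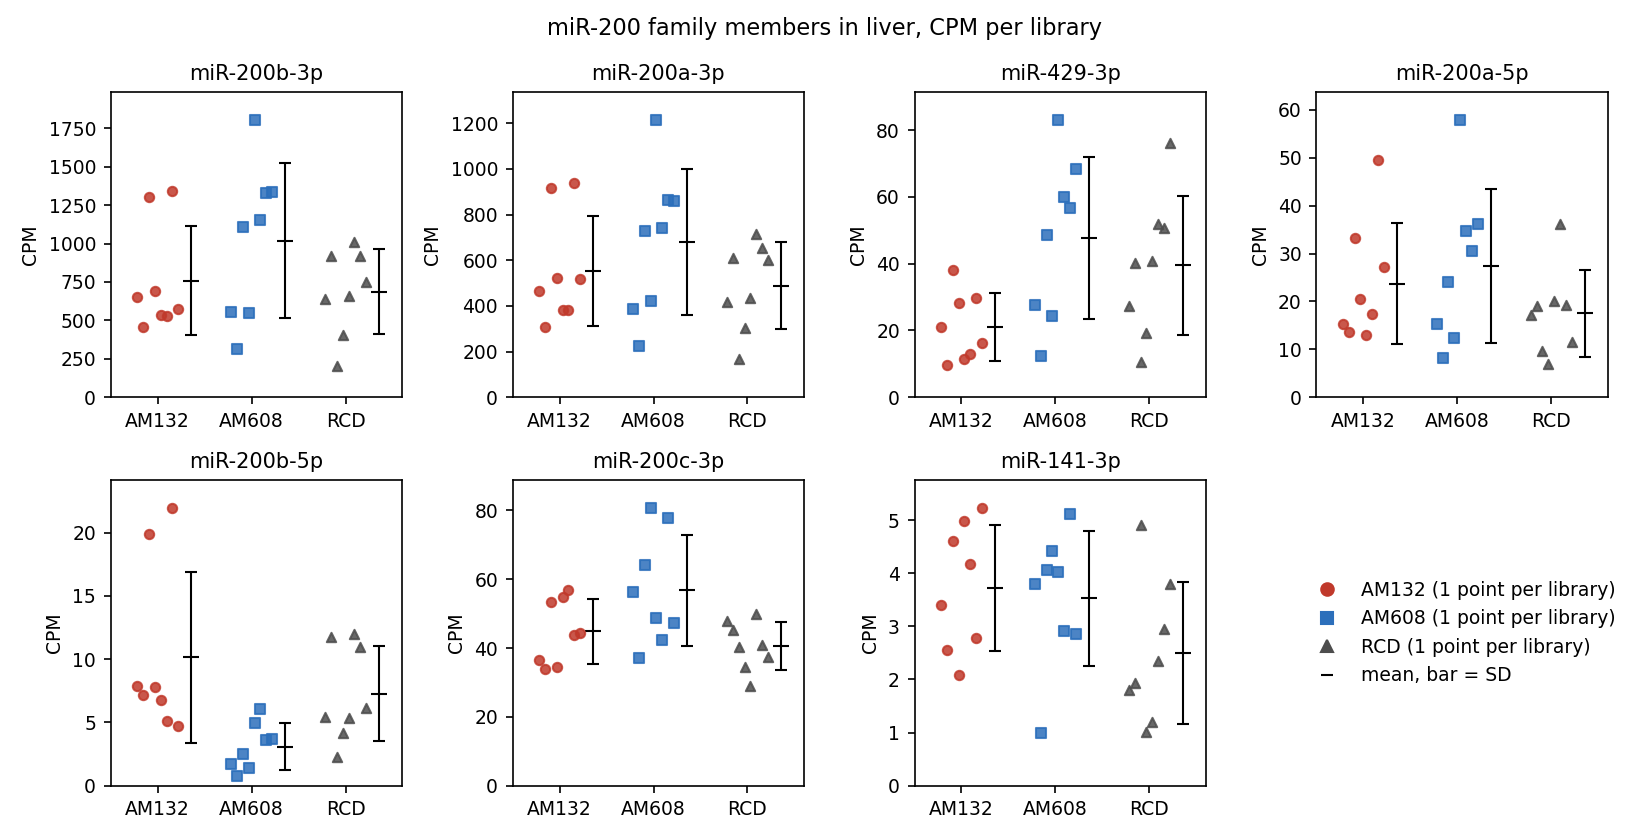
CPM of the 7 family members in each library of AM132, AM608 and RCD (8 points per group, linear axes from 0), with the mean and SD beside each group. miR-200b-3p and miR-200a-3p spread widely within every group, miR-429-3p sits lowest in AM132, and miR-200b-5p sits lowest in AM608, between 0.746 and 6.09 CPM.

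The members of the chromosome 4 cluster moved together from library to library. Over all libraries those of the chromosome 6 cluster did not follow them, with miR-141-3p in AM608 as an exception. After the group means of log2 CPM were subtracted, the 10 pairs of chromosome 4 members had Pearson r of 0.78 to 0.99 over the 24 libraries and Spearman rho of 0.81 to 0.97. All 10 pairs passed the permutation test (adjusted p of 8.4e-05 or less over 21 pairs, 100000 shuffles within groups), and r stayed at 0.71 to 0.98 without the 2 libraries farthest from the median of the first member. The tightest pair was miR-200a-3p and miR-200b-3p, with r of 0.98, 0.997 and 0.99 within AM132, AM608 and RCD. miR-200c-3p and miR-141-3p had r of 0.64 and rho of 0.60 (permutation adjusted p = 0.00162 and 0.00443), and r of 0.54 without the 2 farthest libraries. Within RCD alone their r was 0.36, against 0.78 within AM132 and 0.80 within AM608. Across the clusters the 10 pairs had r of 0.06 to 0.23, none with an adjusted p under 0.537. Within AM608, miR-141-3p had r of 0.51 to 0.64 with the 5 chromosome 4 members, against -0.21 to 0.02 within AM132 and -0.20 to 0.00 within RCD. For miR-200c-3p the same range was -0.02 to 0.19 within AM608, -0.03 to 0.19 within AM132 and 0.06 to 0.45 within RCD. The difference between groups in these r was not tested. miR-141-3p, which differs from miR-200a-3p at C17A and U22G, had 0.33 to 1.05 reads per 100 miR-200a-3p reads in AM608. This was 0.30 to 1.30 in AM132 and 0.27 to 2.94 in RCD. The part of misassigned reads in its r was not tested. Of the pairs that share a seed across clusters, miR-200b-3p and miR-200c-3p had r of 0.19 (rho 0.12, permutation adjusted p = 0.545) and miR-200a-3p and miR-141-3p had r of 0.23 (rho 0.17, permutation adjusted p = 0.537) over all libraries. For scale, the median r over all 88410 pairs of tested miRNAs was 0.00, and 0.495% of pairs reached 0.8. Values from one library share its depth and scaling. The summed chromosome 4 members spanned 392.1 to 3168 CPM over the 24 libraries, a factor of 8.08, and the summed chromosome 6 members 30.3 to 85.1 CPM, a factor of 2.81.

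**Figure D2:**
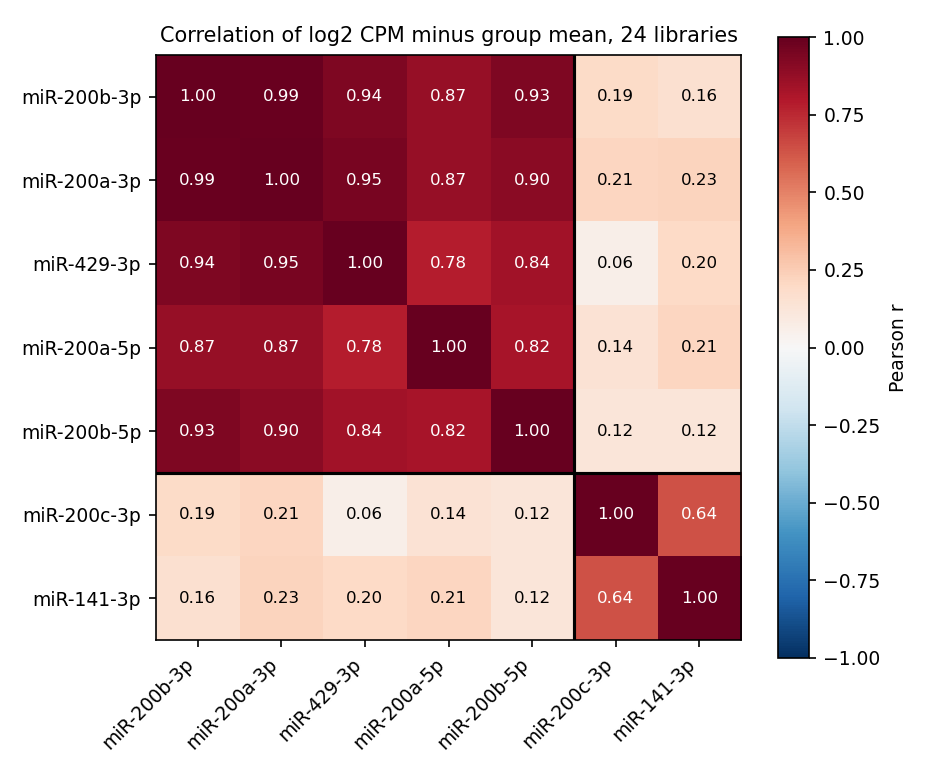
Pearson r of log2 CPM, group means subtracted, for each pair of the 7 members over 24 libraries, with lines between the 5 chromosome 4 and the 2 chromosome 6 members. The chromosome 4 block holds r of 0.78 to 0.99, the chromosome 6 pair 0.64, and the pairs between the clusters 0.06 to 0.23.

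**Figure D3:**
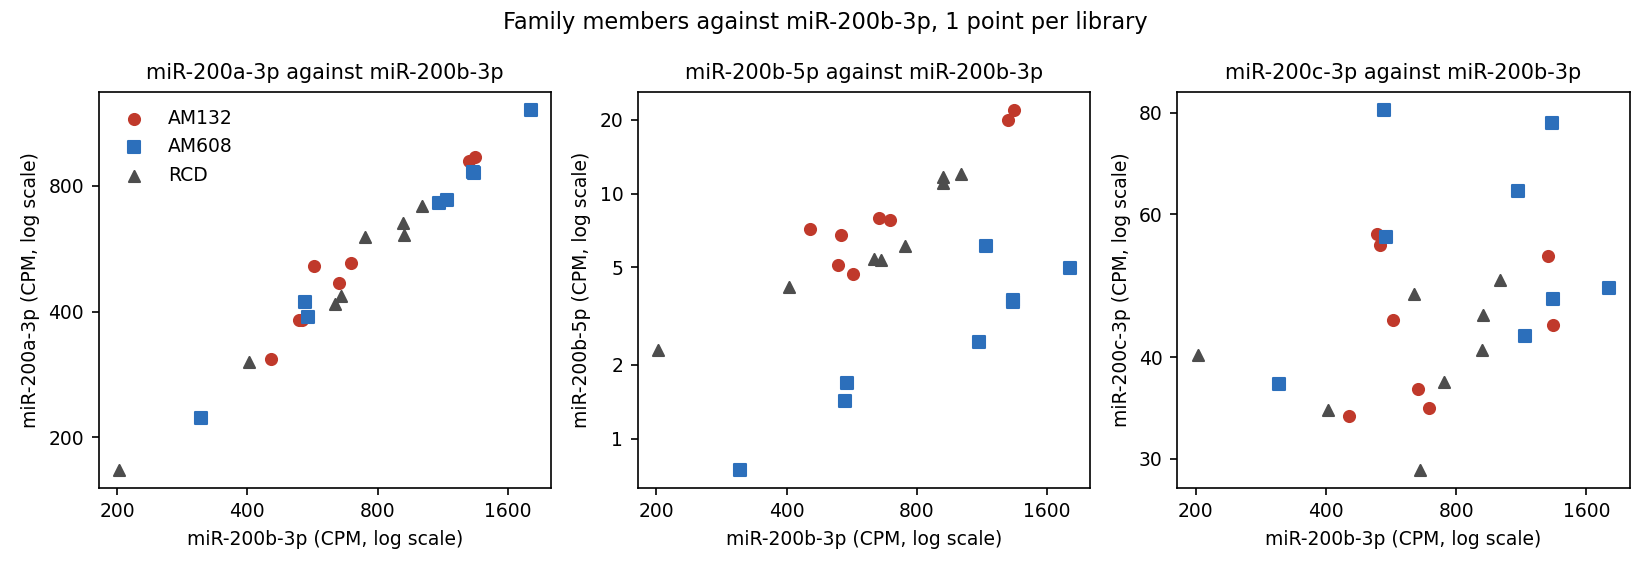
CPM of miR-200a-3p, miR-200b-5p and miR-200c-3p against miR-200b-3p, 1 point per library, both axes logarithmic. miR-200a-3p follows miR-200b-3p on one line in all groups, the AM608 points of miR-200b-5p lie on a line of their own below the AM132 and RCD points, and miR-200c-3p shows no line.

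The arms of Mir200b gave a difference in which the groups did not overlap. For every 100 reads of the guide miR-200b-3p, AM132 libraries had 0.820 reads of the passenger miR-200b-5p at the lowest, 1.24 at the median and 1.64 at the highest. AM608 libraries had 0.224, 0.273 and 0.527, and RCD libraries had 0.814, 1.081 and 1.27. Every AM608 library lay below every AM132 and every RCD library, from 6 to 48 passenger reads per AM608 library. This ratio is taken within a library and does not depend on the scaling between libraries. The log2 ratio averaged -6.32 ± 0.35 in AM132, -8.40 ± 0.37 in AM608 and -6.59 ± 0.27 in RCD (SD, n = 8 each). It was higher in AM132 than in AM608 by 2.07, a factor of 4.21 (exact two-sided permutation p = 0.000155, the smallest that 8 against 8 libraries can give; adjusted p = 0.00111 over 107 precursors with both arms tested). It was lower in AM608 than in RCD by a log2 difference of -1.80, a factor of 3.49 (exact permutation p = 0.000155, adjusted p = 0.00333). AM132 and RCD differed by 0.27 (exact permutation p = 0.0996, adjusted p = 0.266), with overlapping ranges. AM132 against AM608 and AM608 against RCD share the AM608 libraries, so these are not independent results.

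Of the 107 precursors, 24.3% were called for this ratio in AM132 against AM608 (15.9% higher, 8.41% lower), 8.41% in AM608 against RCD (2.8% higher, 5.61% lower) and 17.8% in AM132 against RCD (12.1% higher, 5.61% lower). The groups did not overlap in 14% of precursors in AM132 against AM608, 4.67% in AM608 against RCD and 10.3% in AM132 against RCD. By size, the difference of Mir200b ranked 3rd in AM132 against AM608, 1st in AM608 against RCD and 58th in AM132 against RCD. Mir200a gave no such difference. miR-200a-5p was 3.27, 4.17 and 5.27 reads per 100 of miR-200a-3p in AM132 (lowest, median and highest), 2.91, 3.81 and 4.77 in AM608, and 1.91, 3.61 and 5.81 in RCD, all overlapping. Its log2 ratio differed by 0.12 in AM132 against AM608, 0.13 in AM608 against RCD and 0.25 in AM132 against RCD (exact permutation adjusted p = 0.571, 0.836 and 0.473). Its SD was 0.27, 0.24 and 0.57 log2 units in AM132, AM608 and RCD.

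**Figure D4:**
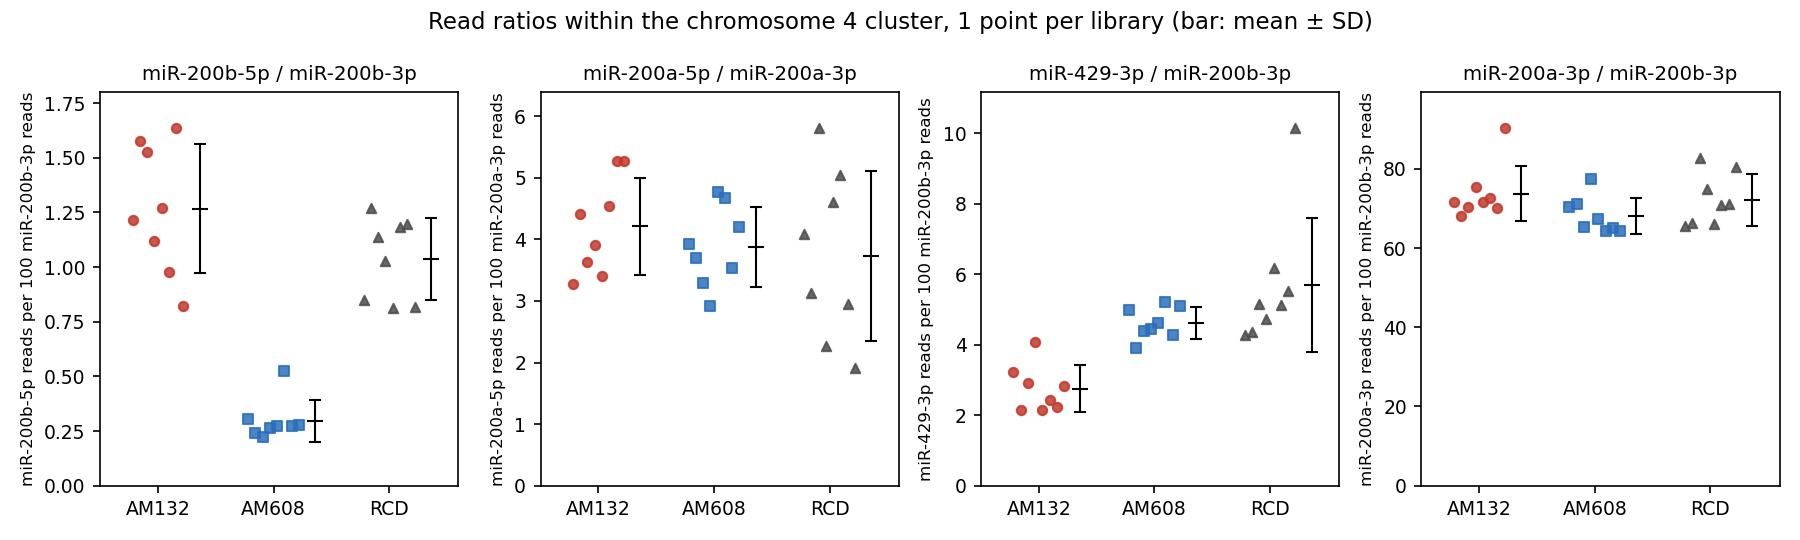
Reads of one strand per 100 reads of another, for 4 pairs within the chromosome 4 cluster, 1 point per library in AM132, AM608 and RCD with the mean and SD beside them (linear axes from 0). miR-200b-5p per miR-200b-3p is 0.224 to 0.527 in AM608 and at least 0.814 elsewhere, and miR-429-3p per miR-200b-3p is 2.14 to 4.07 in AM132 and at least 3.90 elsewhere.

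A second departure within the cluster was that of miR-429-3p in AM132. Per 100 reads of miR-200b-3p there were 2.14, 2.64 and 4.07 reads of miR-429-3p in AM132 (lowest, median and highest), 3.90, 4.53 and 5.204 in AM608, and 4.28, 5.14 and 10.15 in RCD. All AM132 libraries lay below all RCD libraries, and 1 AM132 library, number 4, overlapped with AM608. This ratio was chosen after its values were seen and was not tested. How often the groups separate in this way for other pairs of strands from different hairpins was not counted, so the separation has no background. For miR-200a-3p the same ratio was 68.0, 71.7 and 90.4 in AM132, 64.2, 66.4 and 77.4 in AM608, and 65.5, 71.0 and 82.6 in RCD, overlapping throughout.

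In AM132 against AM608, 2 of the 7 members were called by the edgeR test, 1 higher and 1 lower, against a background of 12.4% of all tested miRNAs (4.04% higher, 8.31% lower). miR-200b-5p averaged 10.2 ± 6.76 CPM in AM132 and 3.09 ± 1.84 CPM in AM608 (SD, n = 8 each), 3.25-fold higher (log2 fold change 1.70, SE 0.42, edgeR adjusted p = 0.00594). All 8 AM132 libraries lay above the AM608 median, and the call was kept when any single library was left out. miR-429-3p averaged 20.9 ± 10.2 CPM in AM132 and 47.6 ± 24.3 CPM in AM608 (log2 fold change -1.19, SE 0.39, edgeR adjusted p = 0.0445). That call was narrow. It was lost, with edgeR adjusted p of up to 0.108, when AM132 library 1, 2, 5, 6 or 8, AM608 library 3, 5, 6, 7 or 8 or RCD library 6 was left out, without a filter on low counts (edgeR adjusted p = 0.174) and with limma voom (0.079). The guides miR-200b-3p (-0.42, 95% interval -1.08 to 0.23), miR-200a-3p (-0.30, -0.91 to 0.32) and miR-200c-3p (-0.34, -0.66 to -0.02) had edgeR adjusted p of 0.493, 0.65 and 0.189. With library totals in place of the trimmed mean, which moved the median of all tested miRNAs by -0.25, miR-200c-3p was called as lower (-0.59, edgeR adjusted p = 0.0108). miR-200a-5p (-0.21) and miR-141-3p (0.07) had edgeR adjusted p of 0.788 and 0.904, and miR-141-3p turned to -0.19 with library totals. The median log2 fold change of the 7 was -0.30, against 0.05 over all tested miRNAs.

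In AM608 against RCD, 2 of 7 members were called, 1 higher and 1 lower, against a background of 28.7% (13.5% higher, 15.2% lower). miR-200c-3p averaged 56.8 ± 16.1 CPM in AM608 and 40.6 ± 6.98 CPM in RCD (SD, n = 8 each), 1.40-fold higher (log2 fold change 0.48, SE 0.16, edgeR adjusted p = 0.0256), and 7 of 8 AM608 libraries lay above the RCD median. The call was kept without any single library. It was lost without a filter on low counts (edgeR adjusted p = 0.0656) and with only these 2 groups in the fit (0.0605). miR-200b-5p averaged 3.09 ± 1.84 CPM in AM608 and 7.26 ± 3.76 CPM in RCD (log2 fold change -1.21, SE 0.42, edgeR adjusted p = 0.0299). Its call was lost, with edgeR adjusted p of up to 0.0671, without AM608 library 1, 2, 3 or 4 or RCD library 2, 6 or 7, with library totals (0.0621) and without a filter on low counts (0.0615). Without RCD library 3 the log2 fold changes of miR-200c-3p and miR-200b-5p were 0.47 and -1.34 (edgeR adjusted p = 0.0351 and 0.0113). The other 5 members had log2 fold changes between 0.27 (miR-429-3p) and 0.65 (miR-200a-5p), with edgeR adjusted p of 0.199 or more. Without RCD library 3 they lay between 0.12 (miR-429-3p) and 0.69 (miR-141-3p), with edgeR adjusted p of 0.0816 or more. With all libraries, the 95% interval of -0.09 to 1.23 for miR-200b-3p includes more than a doubling. The median of the 7 was 0.48, against -0.03 over all tested miRNAs.

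In AM132 against RCD no member was called by edgeR, against a background of 34.2% (15.4% higher, 18.8% lower). At an unadjusted p under 0.05, a cut for which no share over all tested miRNAs is given, there was 1, miR-429-3p. miR-429-3p averaged 20.9 ± 10.2 CPM in AM132 and 39.6 ± 20.8 CPM in RCD (log2 fold change -0.92, SE 0.39, edgeR adjusted p = 0.0677, n = 8 each). It was called with DESeq2 (-0.96, DESeq2 adjusted p = 0.0374) and with library totals (-1.08, edgeR adjusted p = 0.0455), which makes 1 of 7 members under each, and limma voom called none. It was also called without AM132 library 3, AM608 library 2 or RCD library 3 or 4, with edgeR adjusted p down to 0.0218 in the fit without RCD library 3 (-1.10). The other 6 lay between 0.14 and 0.55, with edgeR adjusted p of 0.174 or more. Without RCD library 3 they lay between -0.03 (miR-200b-3p) and 0.74 (miR-141-3p), with edgeR adjusted p of 0.067 or more. With all libraries, the difference for miR-200b-5p was 0.49 (95% interval -0.30 to 1.28). Among the group means of miR-200b-5p the order was AM132, RCD, AM608, with AM132 and RCD not told apart, and among those of miR-429-3p it was AM608, RCD, AM132, with AM608 and RCD not told apart (0.27, edgeR adjusted p = 0.638).

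**Figure D5:**
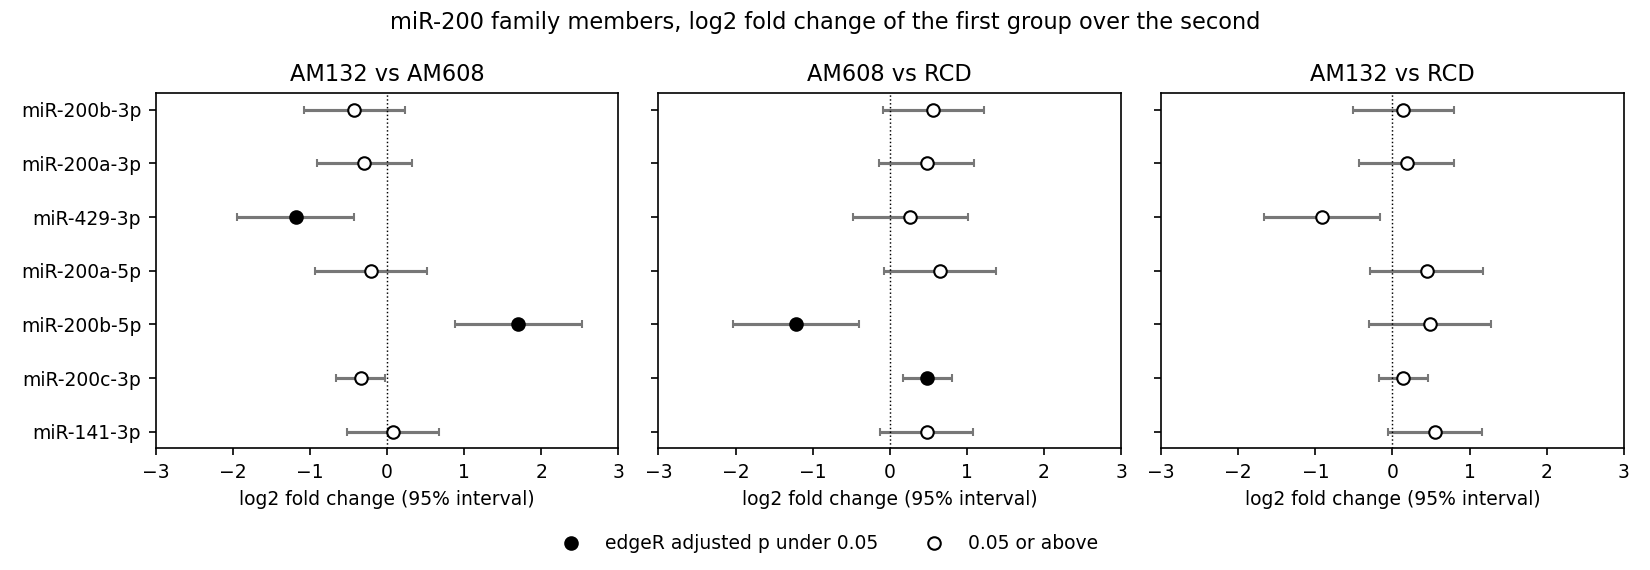
Log2 fold change with 95% interval (normal, from the edgeR fit) of the 7 members in a panel each for AM132 over AM608, for AM608 over RCD and for AM132 over RCD; filled points have an adjusted p under 0.05. miR-200b-5p is at 1.70 and -1.21 in the panels that involve AM608, and miR-429-3p is negative in the panels that involve AM132.

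Outside the family, the miRNAs whose levels were most like those of the guides were miR-183-5p, miR-96-5p and miR-182-5p, from the miR-183 cluster, and miR-181d-5p and miR-181c-5p. With the group means subtracted, their Pearson r with the mean z-score of the 5 guides was 0.84, 0.84, 0.79, 0.74 and 0.71 over the 24 libraries (rho 0.81, 0.81, 0.73, 0.73 and 0.68), and the same 5 led on log2 CPM as it stands (0.82, 0.78, 0.76, 0.78 and 0.73). Within AM608 each of the 5 had an r of 0.89 to 0.92, and within RCD 0.80 for miR-96-5p, 0.74 for miR-183-5p and 0.28 to 0.46 for the other 3. Most guides in the mean z-score are from chromosome 4 and vary together, so it is weighted toward that cluster. Likeness to each cluster alone was not tested. miR-183-5p averaged 325 CPM in AM132, 351 CPM in AM608 and 195 CPM in RCD. It was higher in AM608 than in RCD by 0.85 (SE 0.28, edgeR adjusted p = 0.0207; 0.0332 without RCD library 3) and in AM132 than in RCD by 0.74 (SE 0.28, edgeR adjusted p = 0.0398), a call lost without RCD library 3 (0.67, edgeR adjusted p = 0.0772).

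Other miRNAs typical of epithelia, a list of 7 that holds the miR-183 cluster, miR-31-5p, miR-203-3p, miR-205-5p and miR-375-3p, all passed the filter. In AM132 against AM608, 1 fell, miR-205-5p (-1.55, edgeR adjusted p = 0.00975), and none rose, where 8.31% of all tested miRNAs were lower and 4.04% higher. The median was -0.08, against 0.05 over all tested miRNAs. In AM608 against RCD 3 rose and none fell, where 13.5% of all tested miRNAs were higher and 15.2% lower. The 3 were miR-205-5p (4.83, 55.9 CPM in AM608 against 1.95 CPM in RCD, edgeR adjusted p = 3.23e-08), miR-183-5p and miR-203-3p, a miRNA of skin and other stratified epithelia (0.35, edgeR adjusted p = 0.00866). The same 3 were called there without RCD library 3, where 66 of all tested miRNAs were higher and 67 lower. The median was 0.43, against -0.03 over all tested miRNAs. In AM132 against RCD miR-205-5p (3.27, edgeR adjusted p = 5.14e-06), miR-203-3p (0.28, 0.0357) and miR-183-5p rose and none fell, where 15.4% of all tested miRNAs were higher and 18.8% lower (median 0.55, against 0.03). Without RCD library 3 that became 1 higher and 1 lower, where 56 of all tested miRNAs were higher and 76 lower. miR-205-5p was still called (3.12, edgeR adjusted p = 1.36e-05), miR-203-3p (0.17, 0.109) and miR-183-5p were not, and miR-31-5p was called as lower (-0.49, edgeR adjusted p = 0.00756). With that library miR-31-5p was at -0.11, -0.21 and -0.32 in AM132 against AM608, in AM608 against RCD and in AM132 against RCD (edgeR adjusted p = 0.779, 0.42 and 0.186). The summed list was 3006 to 4010 CPM in AM132, 3048 to 4050 CPM in AM608 and 1758 to 3184 CPM in RCD, lowest in RCD library 3.

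A second list held 21 miRNAs reported to act, besides the miR-200 guides, on the change from epithelial to mesenchymal state or on fibrosis, and 20 of them were tested. The list was not sorted by whether a miRNA restrains or promotes these changes, so its counts and medians have no single reading. In AM132 against AM608, 1 rose (miR-192-5p, 0.58, edgeR adjusted p = 0.000816) and 2 fell (miR-205-5p and miR-34a-5p, a target of p53, -0.75, edgeR adjusted p = 0.000915), with a median of 0.01 and 4.04% higher and 8.31% lower over all tested miRNAs. Without RCD library 3, which is in neither group but enters the shared estimate of spread and scaling, 4 rose and 3 fell. Over all tested miRNAs that fit called 21 higher and 43 lower, against 17 and 35 with the library. The additional calls within the list were miR-101a-3p (0.18, edgeR adjusted p = 0.0452), miR-101b-3p (0.25, 0.0252), miR-30a-5p (0.23, 0.0474) and miR-34c-5p (-1.03, edgeR adjusted p = 0.00292).

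In AM608 against RCD 5 of this list rose and 4 fell, with a median of -0.06 and 13.5% higher and 15.2% lower over all tested miRNAs. Besides miR-205-5p and miR-203-3p, those that rose were miR-34a-5p (0.52, edgeR adjusted p = 0.0105) and the neighbours miR-221-3p (0.35, 0.0226) and miR-222-3p (0.42, edgeR adjusted p = 0.00723). The 4 that fell were miR-21a-5p, a miRNA raised in many fibrotic tissues (-0.68, edgeR adjusted p = 3.18e-05), miR-29a-3p, which represses collagens (-0.35, 0.0361), miR-10b-5p (-3.06, 0.00866) and the neural miR-9-5p (-4.27, edgeR adjusted p = 0.000453). RCD library 3 had 4292 CPM of miR-10b-5p and 530 CPM of miR-9-5p, against at most 391 and 45.3 CPM in the other 23 libraries. RCD libraries 4 to 7 also had 20.4 to 45.3 CPM of miR-9-5p, against at most 8.71 CPM in any AM132 or AM608 library. Without RCD library 3, 5 of the list rose and 5 fell. Over all tested miRNAs that fit called 66 higher and 67 lower, against 57 and 64 with the library. miR-10b-5p was not called (-0.84, edgeR adjusted p = 0.218), miR-9-5p was at -2.16 (edgeR adjusted p = 0.000978), and miR-101a-3p and miR-29c-3p were called as lower.

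In AM132 against RCD 5 of the list rose and 4 fell, with a median of 0.03 and 15.4% higher and 18.8% lower over all tested miRNAs. Those that rose were miR-192-5p (0.53), miR-203-3p, miR-205-5p, miR-221-3p (0.38) and miR-222-3p (0.34), and those that fell were miR-10b-5p (-2.95), miR-21a-5p (-0.56), miR-34c-5p (-1.44) and miR-9-5p (-4.83); the highest edgeR adjusted p among these was 0.0357. Without RCD library 3, 3 rose and 3 fell, as miR-203-3p, miR-222-3p (edgeR adjusted p = 0.0525) and miR-10b-5p (-0.77, edgeR adjusted p = 0.257) were no longer called. Over all tested miRNAs that fit called 56 higher and 76 lower, against 65 and 79 with the library.

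Markers of other liver cells were counted beside these. Over all tested miRNAs, 4.04% were higher and 8.31% lower in AM132 against AM608. These shares were 13.5% and 15.2% in AM608 against RCD, and 15.4% and 18.8% in AM132 against RCD. Without RCD library 3, 21 miRNAs were higher and 43 lower in AM132 against AM608. That fit gave 66 and 67 in AM608 against RCD, and 56 and 76 in AM132 against RCD. Of 6 hepatocyte markers, 1 rose in AM132 against AM608 (miR-192-5p), and 4 rose without RCD library 3, when miR-122-5p (0.40, edgeR adjusted p = 0.00966), miR-194-5p (0.38, 0.00976) and miR-101a-3p were added. In AM608 against RCD 1 hepatocyte marker fell (miR-122-3p, -0.89, edgeR adjusted p = 0.0242), and 2 without that library. In AM132 against RCD miR-192-5p and miR-194-5p (0.45, edgeR adjusted p = 0.0174) rose with and without it. All 6, which include both arms of miR-122, had an unadjusted edgeR p under 0.05 in AM132 against AM608, each with a positive log2 fold change. The share of all tested miRNAs under that unadjusted cut is not given here. Counts at that cut, for this list and those below, therefore have no background and are not read as results about the lists. The hepatocyte numbers at that cut were 1 in AM608 against RCD and 3 in AM132 against RCD. The list medians were 0.42, -0.08 and 0.28 in AM132 against AM608, in AM608 against RCD and in AM132 against RCD. Over all tested miRNAs they were 0.05, -0.03 and 0.03. Of 5 mesenchymal markers, miR-199a-3p fell in AM132 against AM608 (-0.74, edgeR adjusted p = 0.0045) and miR-145a-5p in AM608 against RCD (-0.65, edgeR adjusted p = 0.00145). Both fell in AM132 against RCD (-0.56 and -0.61, edgeR adjusted p = 0.0155 and 0.00234). Each of these calls was also made without RCD library 3. The mesenchymal medians were -0.06, 0.12 and -0.31 in AM132 against AM608, in AM608 against RCD and in AM132 against RCD. The other arm, miR-199a-5p, was not called in any of them (-0.23, 0.12 and -0.11). In AM608 against RCD, miR-199a-3p (0.18) and miR-214-3p (0.12) were positive, miR-143-3p was negative (-0.25), and none of these was called. Of 2 endothelial markers, miR-126a-3p rose in AM608 against RCD (0.29, edgeR adjusted p = 0.0104), with and without RCD library 3. It also rose in AM132 against RCD (0.37, edgeR adjusted p = 0.00136), again with and without that library. The other arm, miR-126a-5p, was not called in these comparisons and was negative in both (-0.16 and -0.19, edgeR adjusted p = 0.552 and 0.43). Of 3 neuronal markers tested, miR-9-5p fell in both comparisons with RCD. Without RCD library 3, miR-128-3p (0.34, edgeR adjusted p = 0.0048) and miR-129-5p (0.83, 0.00203) were also called as higher in AM608 than in RCD, and miR-129-5p as lower in AM132 than in AM608 (-0.63, edgeR adjusted p = 0.0215). edgeR called 0 of the 3 leukocyte markers tested in any comparison, with 0, 1 and 2 at an unadjusted p under 0.05 in AM132 against AM608, in AM608 against RCD and in AM132 against RCD, and 0 of the 2 erythroid markers, with 0, 1 and 0. These counts were 1, 1 and 2 for mesenchymal, 0, 1 and 1 for endothelial and 0, 2 and 2 for neuronal markers. Pancreatic acinar markers, 3 miRNAs, were all under the filter and summed to at most 3.87 CPM in any library. The part of other cells in the family's values was not tested.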

How the data were processed

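The authors deposited raw read counts per mature miRNA, 1 column per liver library, and these counts were used as deposited; columns were matched to samples by the group and number in their names. Per the labels' protocols, small RNA libraries (NEBNext kit) of liver total RNA were sequenced on an Illumina NextSeq. FastQC is named in the submitters' processing notes; aligner, counting rule and genome build: not given in the sources used here. The tRNA fragment table was not used. All 84 pairs of libraries from the same group differed by more than sampling noise (chi-square over its degrees of freedom at least 25.7).

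The main test was edgeR 4.0.16 (R 4.3.3): robust quasi-likelihood fit, TMM factors, filterByExpr, group as the only term, all 24 libraries, Benjamini-Hochberg adjustment over 421 miRNAs, threshold 0.05. SE is the absolute log2 fold change over the square root of F. CPM uses TMM-scaled sums of tested counts; log2 CPM has a prior of 0.5 counts. Arm ratios (0.5 added to each count) were tested by exact permutation over 12870 assignments; the adjustment runs over all 107 precursors in place of the 6 family tests planned, a change made after the data were seen. DESeq2 1.42.0 and limma 3.58.1 were alternatives. The fit and the ratio test were tested on simulated data. Members and lists were chosen with earlier results of these data known. Always named were the 7 members, with values the other arms, the 5 most similar miRNAs and the called members of the lists; fits of the lists without RCD library 3 were added after the values were seen. Deviations from the group mean had r of -0.36 to 0.39 between same-numbered libraries (11 of 24 pairs over 0.1). In 4 of 24 cases the library matched best with its own number. Numbers were therefore not treated as pairs in the main fit, though a weak pairing is not excluded.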

Additional observations from a re-analysis of the deposited data

Results flagged for a closer look

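Among 30 sets of 8 libraries (the 7 members and 3 read ratios in each group), 3 held a library far from the rest, where chance flags about 1 in 20. AM608 library 6 had 0.527 miR-200b-5p reads per 100 miR-200b-3p reads, well above the other 7 AM608 libraries and still below every AM132 and RCD library. RCD library 8 had 10.15 miR-429-3p reads per 100 miR-200b-3p reads, the highest of its group. RCD library 6 had 36.12 CPM of miR-200a-5p, the highest of its group.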

How the results depend on the processing

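In miRNAs called, AM132 against AM608 gave 52, and 91 with library totals (8 higher, 83 lower, against 17 and 35) and 87 with only the 2 groups; AM132 against RCD gave 144, and 94 at a mean CPM of at least 10. With single libraries left out these counts ran from 44 to 64, 112 to 133 (AM608 against RCD) and 127 to 154. Members called in AM132 against AM608 were 2, and 3 with library totals (1 higher, 2 lower). They were 1 without a filter, at a mean CPM of at least 10 (which leaves 5 members), with limma voom and with the replicate block. The range over single libraries was 1 to 2. In AM608 against RCD they were 2, and 1 with library totals, at a mean CPM of at least 10, with only the 2 groups and with the replicate block, and 0 without a filter; the range was 1 to 2. In AM132 against RCD they were 0, and 1 with library totals, with DESeq2 and without RCD library 3 and AM132 library 8; the range was 0 to 1. Directions turned only for members far from any call: miR-141-3p in AM132 against AM608 with library totals (-0.19), without the 2 libraries together (-0.034) and over single libraries (-0.10 to 0.16), miR-200a-5p there (-0.455 to 0.037), and in AM132 against RCD miR-200b-3p (-0.003 with library totals, -0.027 to 0.246 over single libraries) and miR-200c-3p (-0.052 with library totals). With the replicate block, calls were lost for miR-429-3p in AM132 against AM608 (-1.03, edgeR adjusted p = 0.113), miR-200c-3p in AM608 against RCD (0.46, 0.0616) and the Mir200b arm ratio in AM608 against RCD (-1.80, exact sign-flip adjusted p = 0.0836), where 8 pairs allow no p below 0.00781. The Mir200b ratio ran from 2.02 to 2.20 in AM132 against AM608 and from -1.92 to -1.75 in AM608 against RCD over single libraries, called each time. Apart from the fewer genes or samples these settings leave, the cause was not tested. Depth limits miR-141-3p (7 to 48 reads) and miR-200b-5p (6 to 150 reads per library).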
